A study of Mus musculus with 6 samples.

Results

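Chaperone genes of the heat shock and endoplasmic reticulum (ER) systems were followed in AI4 CD8 T cells sorted from mouse pancreas. The set was given by name as 38 genes, of which 24 act in or for the ER, 11 in the cytosol and nucleus and 3 in mitochondria. A gene was measured where a probe set on the array carried its symbol alone, and the probe set with the highest mean over the 6 arrays stood for it. This gave 35 measured genes of 19929 in the whole table, with all 24 ER genes, 8 cytosolic and all 3 mitochondrial genes among them. Hspa1b, Hsp90ab1 and the heat shock regulator Hsf1 had no such probe set and were not analysed here. All 35 measured members also passed the filter on dim genes.

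Each sample was total RNA of CD8 T cells with the transgenic AI4 antigen receptor, hybridised to its own single-colour Affymetrix array. Pancreata were pooled, and cells were sorted by flow cytometry on CD8 and on binding of the MimA2/H-2Db tetramer. In the Rip-B7xAI4 group (3 arrays) the mice carried the AI4 receptor and Rip-B7x and were resistant to type 1 diabetes (T1D), and in the AI4 group (3 arrays) they carried the receptor without Rip-B7x and developed T1D. Both groups were on the C57BL/6.H2g7/g7 background, and neither the age of the mice nor the number pooled per array is stated by the labels, which call the arrays of a group biological replicates. As background, Rip stands for the rat insulin promoter, which directs a transgene to beta cells, and B7x is an inhibitory ligand that T cells meet on other cells. Resistance to T1D goes with Rip-B7x in every sample, so the transgene and the disease state cannot be told apart.

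Heat shock proteins of the cytosol, chiefly Hsp70 and Hsp90 with their J-protein partners, fold new proteins and refold damaged ones, and their genes are induced by the factor HSF1. In the ER a separate set, led by BiP (Hspa5) and Grp94 (Hsp90b1) and joined by the lectins calreticulin and calnexin and the protein disulphide isomerases, folds proteins that enter the secretory pathway. When unfolded proteins build up in the ER, the sensors IRE1 (Ern1), PERK (Eif2ak3) and ATF6 start the unfolded protein response, which raises these chaperones through XBP1, ATF4 and ATF6. Activated CD8 T cells enlarge their ER as they begin to secrete cytokines and granule proteases.

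Values are log2 expression as deposited, and differences are Rip-B7xAI4 minus AI4. Array medians lay between 5.94 and 6.10, but the spread within arrays was unequal. The interquartile range was 2.13, 1.93 and 1.81 in Rip-B7xAI4 replicates 1 to 3, against 1.71, 1.76 and 1.95 in AI4 replicates 1 to 3. T cell markers averaged 10.13, 10.46 and 9.78 in Rip-B7xAI4 replicates 1 to 3, against 9.88, 10.45 and 10.38 in AI4 replicates 1 to 3 (11 of 13 listed genes measured, Cd3e and Cd8a among them). Myeloid markers averaged 8.73, 6.22 and 8.58 in Rip-B7xAI4, against 6.44, 6.11 and 6.27 in AI4 (19 of 20 measured), so replicates 1 and 3 of Rip-B7xAI4 were high and replicate 2 lay within the AI4 range. Of 18 tested myeloid markers, 5 were higher in Rip-B7xAI4 at an unadjusted limma p under 0.05, and in bulk RNA more cells of a type and more RNA per cell cannot be told apart. Acinar, islet and B or plasma cell markers averaged between 5.45 and 6.05 in Rip-B7xAI4 and between 5.60 and 6.05 in AI4. The B or plasma cell list alone averaged 5.93, 5.45 and 6.05 in Rip-B7xAI4, against 5.83, 5.60 and 5.84 in AI4. At the same unadjusted limit, 1 of 14 tested acinar markers was higher and 1 lower, and 1 of 11 T cell markers was lower. Of all tested genes, 5.56% were higher and 3.17% lower. AI4 replicate 1 was the array least like the rest, with a Pearson correlation over all probe sets of 0.875 to 0.913 with the other 5 arrays.

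Many ER chaperone genes had higher values in Rip-B7xAI4 cells than in AI4 cells, by 1.40-fold to 2.53-fold for the 12 that stood out most, but none passed a test adjusted over all genes. Because members were chosen with earlier results of these data known, their counts are not those of an unselected set. Of 24 ER members, 21 had a positive difference and their median was 0.54 on the log2 scale (0.35 after quantile normalization), against -0.10 over all 13950 tested genes (-0.08 after quantile normalization). At an unadjusted limma p under 0.05, 12 of 24 ER members were higher and 0 lower, where 5.56% of all tested genes were higher and 3.17% lower (776 and 442 genes, or 910 and 243 with each array centred on its median). At an unadjusted p under 0.01, 2 of 24 ER members, Hspa5 and Dnajb11, were higher, where 1.67% of all tested genes were. At the same limit 0 of 8 cytosolic and 0 of 3 mitochondrial members were higher or lower, and their median differences were 0.21 and 0.09. The cytosolic median was 0.042 when Rip-B7xAI4 replicate 1 was left out, 0.36 when AI4 replicate 1 was and 0.019 when AI4 replicate 3 was. No member passed a p adjusted over all tested genes, where the lowest among the 35 was 0.410 in limma and 1 gene in all (0.00717%) passed. All 12 ER members below the unadjusted limit had their 3 Rip-B7xAI4 arrays above their 3 AI4 arrays, and no other member had groups that did not overlap. Such a separation was seen in 5.99% of all tested genes with Rip-B7xAI4 above and in 11.9% with Rip-B7xAI4 below. The count of 12 was 5 when Rip-B7xAI4 replicate 1 was left out, 6 when AI4 replicate 2 was left out and 6 after quantile normalization, where 3.49%, 3.99% and 4.59% of all tested genes were higher.

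**Figure D1:**
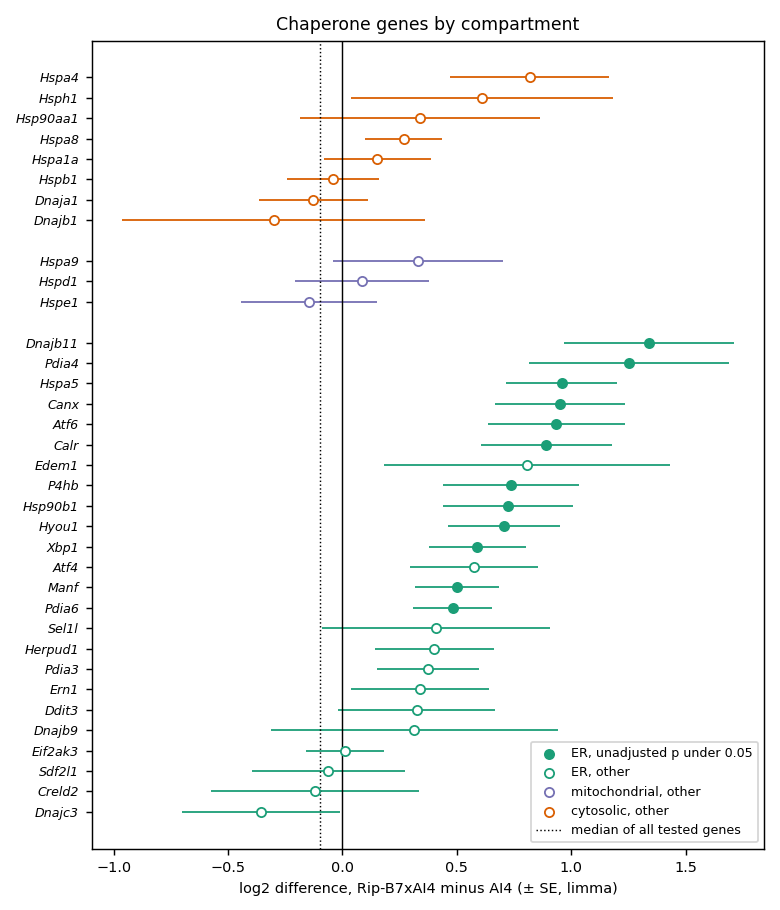
Log2 difference between Rip-B7xAI4 and AI4 (Rip-B7xAI4 minus AI4, x axis) for each of the 35 measured genes (y axis, grouped by compartment), with bars of 1 SE from limma. Filled points have an unadjusted p under 0.05, all 12 of them ER genes, and the dotted line is the median of all tested genes at -0.10.

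Within the ER, the Hsp70 and Hsp90 machinery held 5 of the 12 genes. Hspa5, which encodes BiP, the Hsp70 of the ER lumen, stood at 11.12, 10.51 and 10.35 in Rip-B7xAI4, against 9.89, 9.62 and 9.60 in AI4 (probe set 10471586). Every Rip-B7xAI4 array lay above every AI4 array, and the difference was 0.96 ± 0.24 (SE), a fold of 1.94, with an adjusted p of 0.410 in limma. Hsp90b1 (Grp94), the Hsp90 of the ER, had 12.002, 11.68 and 11.73 in Rip-B7xAI4, against 11.67, 10.67 and 10.89 in AI4. The groups were parted by a small gap, since AI4 replicate 1 nearly reached the lowest Rip-B7xAI4 array, and the difference was 0.72 ± 0.29. Dnajb11 (ERdj3), a J-protein that brings clients to BiP, had 9.21, 8.94 and 8.61 in Rip-B7xAI4, against 7.05, 7.31 and 8.38 in AI4. Its difference of 1.34 ± 0.37, a fold of 2.53, was the largest of all 35 members, and 2 of its 3 AI4 arrays lay far below the others. Hyou1 (Grp170), a large Hsp70 relative that exchanges the nucleotide on BiP, had 7.78, 7.56 and 7.14 in Rip-B7xAI4, against 6.88, 6.46 and 7.03 in AI4, a difference of 0.71 ± 0.24. Manf, a small secreted ER stress protein that binds BiP, had 8.99, 8.55 and 8.76 in Rip-B7xAI4, against 8.39, 8.15 and 8.26 in AI4, a difference of 0.50 ± 0.18. In both the lowest Rip-B7xAI4 array lay just above the highest AI4 array. The other 3 genes of this class overlapped between groups. Dnajb9 (ERdj4), a J-protein known as a target of XBP1, had 8.53 in Rip-B7xAI4 replicate 1 but 6.64 and 6.21 in replicates 2 and 3, against 6.13, 7.16 and 7.16 in AI4. Dnajc3 (p58IPK), an inhibitor of PERK and a BiP partner, differed by -0.36 ± 0.34, with a 95% interval of -1.18 to 0.47, and Sdf2l1, a BiP cofactor, by -0.06 ± 0.33, with an interval of -0.86 to 0.73.

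**Figure D2:**
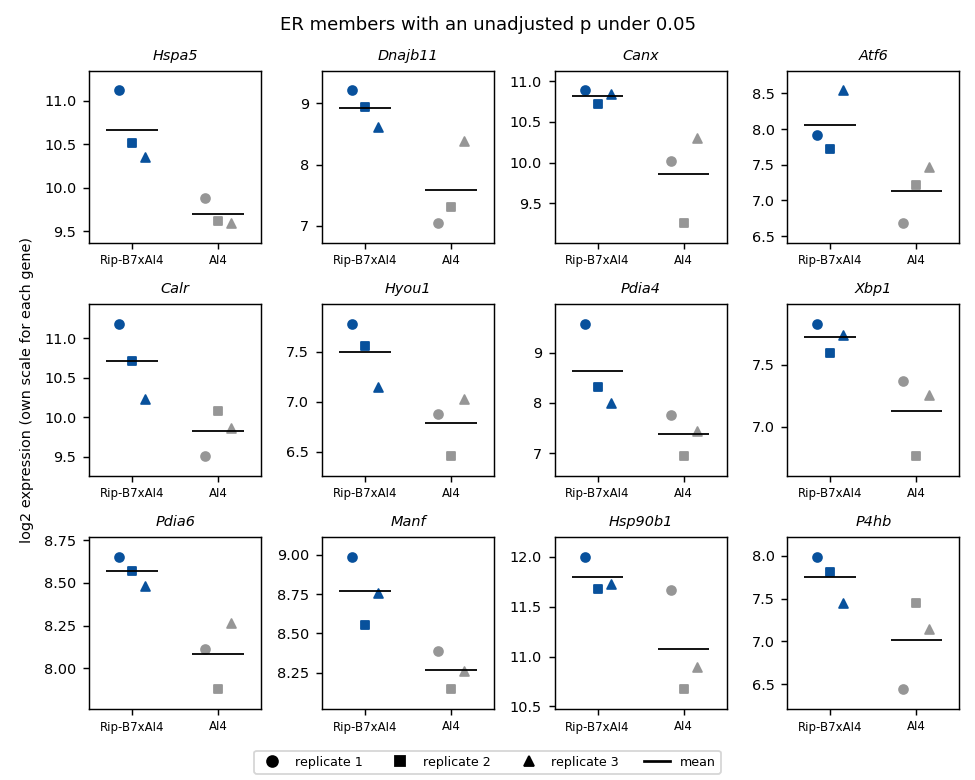
Log2 expression (y axis, own scale for each gene) in each array of Rip-B7xAI4 (blue) and AI4 (grey) for the 12 ER genes with an unadjusted p under 0.05. Marker shapes give the replicate number and lines the mean of 3 arrays, and in every panel the 3 Rip-B7xAI4 arrays lie above the 3 AI4 arrays.

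Promoters of these genes are shown because the ER chaperones are the textbook targets of the ER stress element (ERSE), where NF-Y binds CCAAT and ATF6 or XBP1 binds CCACG. RefSeq windows of 300 bases, 250 before and 50 after the start of the gene (GRCm38.p6), were found for 30 of the 38 members and for 21 of the 24 ER members. The exact letters CCAAT, 9 bases of any kind and CCACG were searched on both strands and occurred in 7 of these 21 ER members, in 0 of 7 cytosolic and 0 of 2 mitochondrial members, and in 0.119% of all 32851 windows. The 7 genes with a match are printed 5′ to 3′ on the strand of the gene, upstream of the start site, with the match in capitals. Where the match lies on the other strand, the capitals begin with CGTGG and end with ATTGG.
Hspa5, chr2:34771940-34772089, plus strand: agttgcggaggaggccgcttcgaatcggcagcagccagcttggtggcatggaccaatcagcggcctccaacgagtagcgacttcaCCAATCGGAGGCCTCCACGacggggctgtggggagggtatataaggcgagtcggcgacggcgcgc
Hsp90b1, chr10:86705518-86705671, minus strand: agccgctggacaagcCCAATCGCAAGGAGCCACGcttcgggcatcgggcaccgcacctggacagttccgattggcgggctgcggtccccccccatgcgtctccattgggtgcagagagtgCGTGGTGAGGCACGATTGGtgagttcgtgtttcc
Calr, chr8:84847060-84847108, minus strand: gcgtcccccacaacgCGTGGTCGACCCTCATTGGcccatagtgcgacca
Canx, chr11:50325785-50325833, minus strand: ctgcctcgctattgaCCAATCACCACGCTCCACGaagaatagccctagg
Pdia6, chr12:17266476-17266524, plus strand: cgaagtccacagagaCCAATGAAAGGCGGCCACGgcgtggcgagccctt
Dnajc3, chr14:118937812-118937860, plus strand: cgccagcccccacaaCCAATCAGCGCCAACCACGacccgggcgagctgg
Creld2, chr15:88819505-88819553, plus strand: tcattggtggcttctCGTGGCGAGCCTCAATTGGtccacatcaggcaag
Hsp90b1 held 2 matches, on opposite strands, and the Hspa5 match ended 47 bases before the start. Of the 7 genes with a match, Hspa5, Hsp90b1, Calr, Canx and Pdia6 were among the 12 with an unadjusted p under 0.05, while Dnajc3 and Creld2 had differences below 0. Of the 14 ER members with a window and no exact match, 4 were among the 12. The median difference was 0.72 for the 7 genes and 0.41 for the 14. All 3 ER members with no window were among the 12, with a median of 0.71. Of 48 ER genes outside the set with a window, 3 had an exact ERSE. Their differences were -0.25, -0.09 and 0.36, and none of the 3 was below the unadjusted limit. Whether the element goes with the difference was not tested. A related element, ERSE-II, has the letters ATTGG, 1 base of any kind and CCACG, which, on both strands, occurred in 2 of 21 ER members, Dnajb11 and Herpud1, and in 0.0365% of all windows. It is shown for Herpud1, chr8:94386362-94386402, plus strand: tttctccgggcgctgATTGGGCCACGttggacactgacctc

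Lectin chaperones and disulphide isomerases, which fold glycoproteins and form their disulphide bonds, gave the other 5 folding genes. Calr (calreticulin), a soluble lectin that also takes part in loading MHC class I, had 11.18, 10.71 and 10.24 in Rip-B7xAI4, against 9.51, 10.08 and 9.87 in AI4. Canx (calnexin), its membrane-bound partner, had 10.88, 10.71 and 10.84 in Rip-B7xAI4, against 10.02, 9.26 and 10.30 in AI4. Both lectin genes were thus higher in every Rip-B7xAI4 array, by 0.89 ± 0.29 (SE) for Calr and 0.95 ± 0.28 for Canx, and the Rip-B7xAI4 arrays were close together for Canx (SD 0.09, n = 3) and spread out for Calr (SD 0.47, n = 3). Pdia4 (ERp72), an isomerase with extra thioredoxin domains, had 9.58, 8.32 and 8.002 in Rip-B7xAI4, against 7.75, 6.94 and 7.45 in AI4. Its difference was 1.25 ± 0.44, with replicate 1 of Rip-B7xAI4 well above the rest. A dimmer Pdia4 probe set, 10544538, went the other way, with 5.27, 6.23 and 5.91 in Rip-B7xAI4, against 5.65, 8.25 and 6.46 in AI4, a difference of -0.98 ± 0.66. The direction for Pdia4 therefore rests on the choice of probe set. Pdia6 had 8.65, 8.57 and 8.48 in Rip-B7xAI4, against 8.11, 7.88 and 8.27 in AI4, and P4hb, the classical protein disulphide isomerase, had 7.99, 7.81 and 7.45 in Rip-B7xAI4, against 6.44, 7.45 and 7.15 in AI4. Their differences were 0.48 ± 0.17 and 0.74 ± 0.30, and for P4hb the lowest Rip-B7xAI4 and the highest AI4 array were nearly equal. Adjusted p in limma lay between 0.478 and 0.566 for these 5 genes. Pdia3 (ERp57), the isomerase that works with both lectins and in the MHC class I loading complex, overlapped between groups at 10.50, 10.41 and 10.19 in Rip-B7xAI4, against 10.37, 9.90 and 9.71 in AI4. It differed by 0.37 ± 0.22, with a 95% interval of -0.16 to 0.90. Creld2, an ER protein with disulphide exchange activity, was highest in AI4 replicate 1 at 8.63 and differed by -0.12 ± 0.45.

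The 3 members of ER-associated degradation, which returns misfolded proteins to the cytosol for the proteasome, all had positive differences and all overlapped between groups. Herpud1, a membrane organiser of the degradation complex, had 7.60, 7.11 and 7.43 in Rip-B7xAI4, against 7.44, 6.66 and 6.84 in AI4, a difference of 0.40 ± 0.26 (SE). Sel1l, the adaptor of the ligase Hrd1, differed by 0.41 ± 0.50, and Edem1, a mannose-binding factor that marks glycoproteins for degradation, by 0.81 ± 0.62. For both, AI4 replicate 1 was the lowest array, at 6.02 and 5.98, while AI4 replicates 2 and 3 lay among the Rip-B7xAI4 arrays. Without AI4 replicate 1 the differences were 0.0052 for Sel1l, 0.087 for Edem1 and 0.63 for Herpud1, which then had an unadjusted limma p under 0.05, and without Rip-B7xAI4 replicate 1 they were 0.065 for Sel1l and 0.49 for Edem1.

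Among the sensors and factors of the unfolded protein response, Atf6 and Xbp1 were higher in every Rip-B7xAI4 array and the genes of the other sensors overlapped. Atf6, a membrane-bound factor that is cut in the Golgi and then enters the nucleus, had 7.92, 7.73 and 8.54 in Rip-B7xAI4, against 6.69, 7.22 and 7.47 in AI4. Xbp1, whose mRNA is spliced by IRE1, had 7.83, 7.59 and 7.74 in Rip-B7xAI4, against 7.37, 6.77 and 7.26 in AI4. The differences were 0.93 ± 0.30 (SE) for Atf6 and 0.59 ± 0.21 for Xbp1, with adjusted p of 0.505 and 0.537 in limma. The Atf6 value is of RNA and does not tell how much ATF6 protein is cut. Because 1 value per gene was used, the Xbp1 value does not tell how much of its mRNA is spliced. Eif2ak3, the gene of PERK, was dim in all arrays, at 6.40, 6.55 and 6.28 in Rip-B7xAI4, against 6.52, 6.25 and 6.44 in AI4. A narrow spread at that level does not show that its RNA was unchanged. Its difference was 0.01 ± 0.17 with a 95% interval of -0.39 to 0.41. Ern1, the gene of IRE1, had 7.21, 6.44 and 6.97 in Rip-B7xAI4, against 6.36, 6.20 and 7.04 in AI4, a difference of 0.34 ± 0.30. On the PERK branch, Atf4, the factor translated when eIF2alpha is phosphorylated, had 8.51, 8.16 and 7.49 in Rip-B7xAI4, against 7.64, 7.46 and 7.33 in AI4. Rip-B7xAI4 replicate 3 lay below AI4 replicate 1 and above the other AI4 arrays, and the difference was 0.58 ± 0.28. Ddit3 (CHOP), a pro-death target of ATF4, had 7.93, 8.14 and 7.14 in Rip-B7xAI4, against 6.89, 7.60 and 7.75 in AI4, with overlap and a difference of 0.32 ± 0.34.

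None of the 8 measured cytosolic members parted the groups. Of all tested genes, 5.99% did so with Rip-B7xAI4 above and 11.9% with Rip-B7xAI4 below. At such shares a count of 0 among 8 genes does not set the class apart from the whole table. Several cytosolic members spread widely between arrays of 1 group. Hspa8 (Hsc70), the constitutive Hsp70, had 12.29, 12.28 and 12.10 in Rip-B7xAI4, against 11.97, 12.11 and 11.80 in AI4, a difference of 0.27 ± 0.17 (SE) and a 95% interval of -0.14 to 0.67. The 3 probe sets with the symbol Hspa8 alone had differences of 0.17 to 0.27. A pair of probe sets that also carry Snord14c and Snord14d, small nucleolar RNA genes, differed by 1.31 ± 0.52 and 1.34 ± 0.54 and cannot be assigned to Hspa8. Hspa1a, a stress-inducible Hsp70, was dim in all arrays, at 6.77, 6.16 and 6.45 in Rip-B7xAI4, against 6.58, 6.03 and 6.32 in AI4. A probe set shared by Hspa1a and its near-identical neighbour Hspa1b had 7.15, 7.35 and 7.27 in Rip-B7xAI4, against 7.78, 7.43 and 6.95 in AI4, so neither signal parted the groups and the copies cannot be told apart there. Hsp90aa1, the inducible cytosolic Hsp90, had 11.38, 11.13 and 10.12 in Rip-B7xAI4, against 11.44, 10.55 and 9.62 in AI4. Both groups spanned more than a log2 unit, and the difference was 0.34 ± 0.52 with an interval of -0.91 to 1.59. Dnajb1 (Hsp40), an inducible J-protein, was highest in AI4 replicate 1 at 9.14, with 7.80, 7.74 and 6.59 in Rip-B7xAI4, against 7.10 and 6.79 in AI4 replicates 2 and 3. Its difference was -0.30 ± 0.66, and 0.43 without that array. Hsph1 (Hsp110), an Hsp70 exchange factor, had 9.35 and 8.80 in Rip-B7xAI4 replicates 1 and 2 but 7.06 in replicate 3, against 7.67, 8.18 and 7.53 in AI4. Its difference was 0.61 ± 0.57, and 1.28 without Rip-B7xAI4 replicate 3, where the unadjusted p was under 0.05. Hspa4 (Apg-2), of the same family, had 9.48, 8.87 and 8.98 in Rip-B7xAI4, against 8.39, 7.61 and 8.87 in AI4. It had the largest difference of the class, 0.82 ± 0.35, and its groups touched at 8.87. Dnaja1 and the small heat shock gene Hspb1 differed by -0.13 ± 0.24 and -0.04 ± 0.20.

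**Figure D3:**
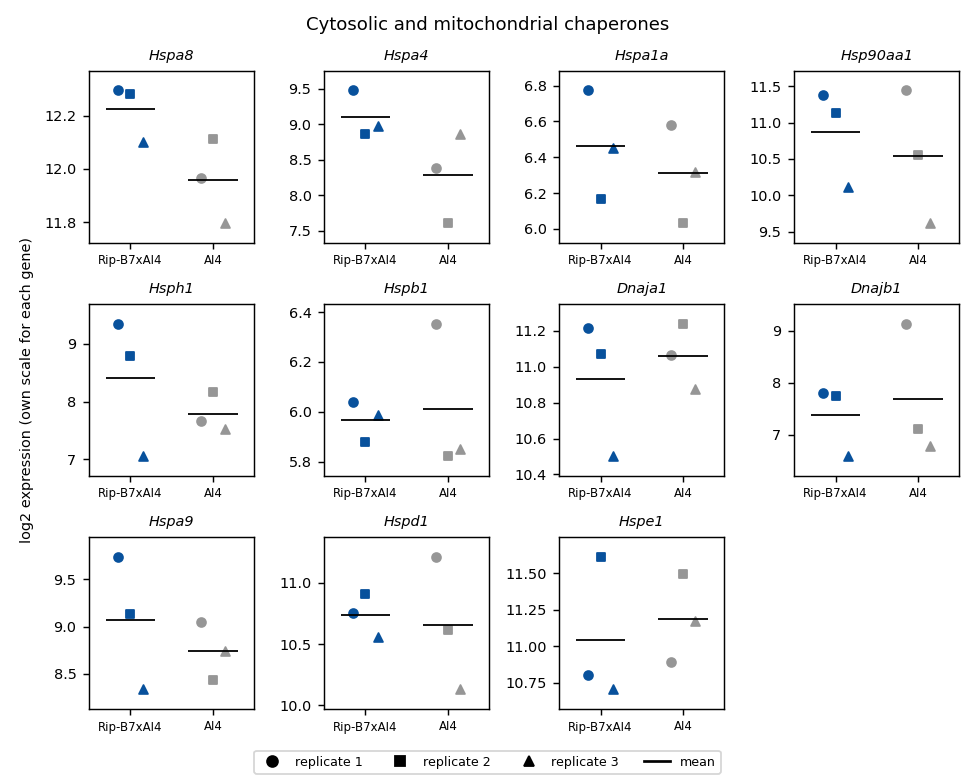
Log2 expression (y axis, own scale for each gene) in each array of Rip-B7xAI4 (blue) and AI4 (grey) for the 8 cytosolic and 3 mitochondrial chaperone genes, with the mean of 3 arrays as a line and marker shapes for the replicate number. The groups overlap in all 11 panels, where 5.99% of all tested genes had Rip-B7xAI4 above without overlap and 11.9% below. Replicate 1 of AI4 is the top array for Hsp90aa1, Hspb1, Dnajb1 and Hspd1.

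Mitochondrial chaperones gave no common direction. Hspa9 (mortalin), the Hsp70 that pulls proteins into the matrix, had 9.74, 9.13 and 8.34 in Rip-B7xAI4, against 9.05, 8.44 and 8.74 in AI4, a difference of 0.33 ± 0.37 (SE). Hspe1 (Hsp10), the lid of the Hsp60 folding chamber, had 10.80, 11.61 and 10.71 in Rip-B7xAI4, against 10.89, 11.49 and 11.17 in AI4, a difference of -0.14 ± 0.30. Hspd1 (Hsp60) depended on the probe set. The brighter one, 10375240, had 10.75, 10.91 and 10.55 in Rip-B7xAI4, against 11.21, 10.62 and 10.13 in AI4, and differed by 0.09 ± 0.29. The other, 10354732, had 9.87, 9.24 and 8.84 in Rip-B7xAI4, against 9.05, 8.41 and 8.30 in AI4, and differed by 0.73 ± 0.33. Both overlapped between groups, the second through AI4 replicate 1. The heat shock element to which HSF1 binds, searched on both strands as GAA, TTC and GAA with 2 bases of any kind between them, occurred in the windows of 2 of 2 mitochondrial members, 1 of 7 cytosolic members (Hsph1) and 0 of 21 ER members, and in 0.603% of all windows. Hspd1 and Hspe1 lie head to head, and the same bases gave both their matches, a pair of overlapping ones printed in capitals on the strand of Hspd1.
Hspd1, chr1:55088044-55088091, minus strand: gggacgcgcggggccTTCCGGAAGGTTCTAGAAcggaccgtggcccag

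Array by array, Rip-B7xAI4 replicate 1 carried the highest value for 19 of 24 ER members, against 5 of 11 cytosolic and mitochondrial members. After each gene's own mean was taken off, the median ER member stood at 0.55, 0.22 and 0.01 in Rip-B7xAI4 replicates 1 to 3, against -0.26, -0.34 and -0.15 in AI4. The median cytosolic member stood at 0.33, 0.18 and -0.25 in Rip-B7xAI4, against 0.13, -0.16 and -0.22 in AI4, so Rip-B7xAI4 replicate 3 was below every AI4 array there. Sdf2l1, Creld2, Hsp90aa1, Dnajb1, Hspb1 and Hspd1 shared another pattern, with their highest value in AI4 replicate 1. Myeloid markers were high in Rip-B7xAI4 replicates 1 and 3 (the 19 measured averaged 8.73 and 8.58). In Rip-B7xAI4 replicate 2, whose myeloid mean of 6.22 lay within the AI4 range of 6.11 to 6.44, 16 of 24 ER members stood above all 3 AI4 arrays, against 4 of 11 cytosolic and mitochondrial members and 19.7% of all tested genes. The 16 include by definition the 12 ER members whose groups did not overlap, so the count is no separate evidence. Whether myeloid RNA adds to the ER differences was not tested. With replicate 2 as the only Rip-B7xAI4 array, the median ER difference was 0.54. In that fit 2 of 24 ER members, Hspa5 and Calr, were higher at an unadjusted limma p under 0.05, against 1 of 11 cytosolic and mitochondrial members, Hsph1, and 3.67% of all tested genes. That fit assumes the lone array varies as the AI4 arrays do.

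**Figure D4:**
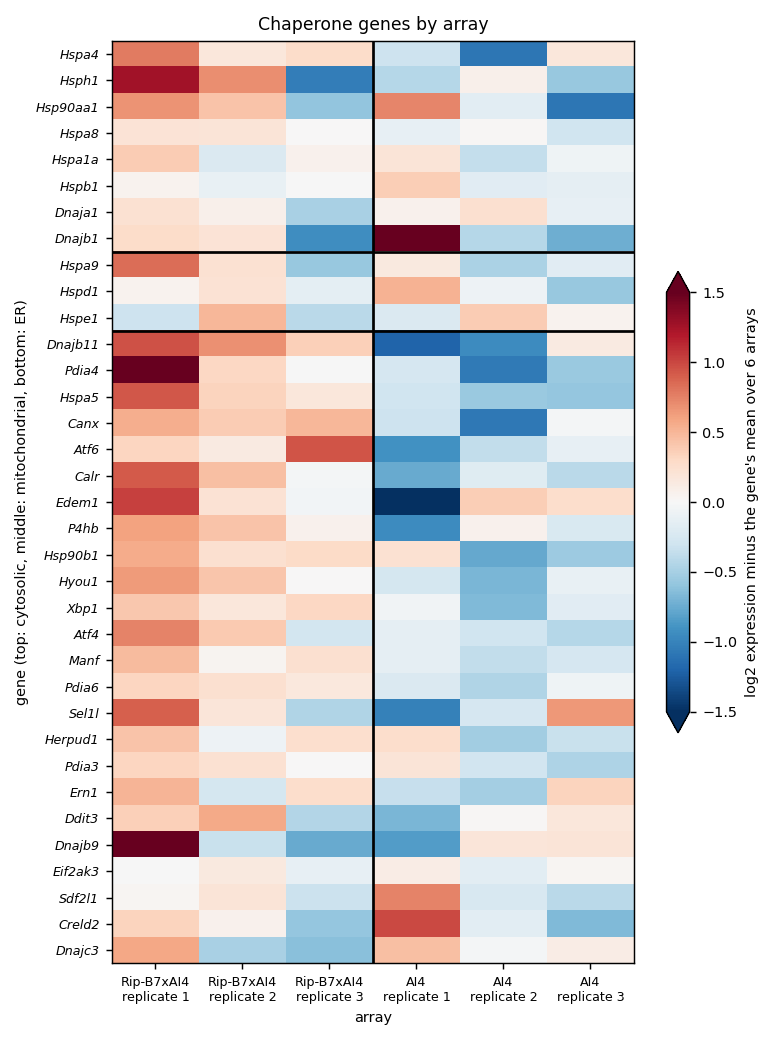
Log2 expression of each gene minus its own mean over 6 arrays (colour, red above and blue below the mean, saturated beyond 1.5 either way) by array (columns, Rip-B7xAI4 left of AI4) and gene (rows, cytosolic at the top, mitochondrial in the middle, ER at the bottom). ER rows are red mostly in Rip-B7xAI4, most of all in replicate 1, while Dnajb1, Creld2 and Sdf2l1 are reddest in AI4 replicate 1.

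Further genes of the same pathways were counted from lists of their own. The lists were chosen with earlier results of these data known, so their counts are not an independent check on the members. Of 18 tested ER folding genes outside the set, 5 were higher at an unadjusted limma p under 0.05 and 0 lower, with a median difference of 0.27, where 5.56% of all tested genes were higher and 3.17% lower. Fkbp2, a prolyl isomerase of the ER, had 11.31, 11.17 and 10.89 in Rip-B7xAI4, against 10.02, 9.36 and 9.74 in AI4, and differed by 1.42 ± 0.23 (SE), with the lowest adjusted p of any listed chaperone gene at 0.175. Ppib (cyclophilin B) differed by 0.93 ± 0.22, Erp44, which retains proteins in the early secretory pathway, by 1.34 ± 0.34 and Hspa13 by 0.71 ± 0.26. Hspa13 was dim, at 6.40, 5.58 and 5.53 in Rip-B7xAI4, against 5.07, 5.22 and 5.08 in AI4. Every AI4 array lay below the filter limit of 5.47, so Hspa13 was tested and counted only through its Rip-B7xAI4 values. Of the 18 differences 11 were above 0 and 7 below, the lowest at -0.59. Of 20 translocon, signal peptidase and glycosylation genes, 7 were higher and 0 lower, with a median of 0.53. Stt3a, the catalytic subunit of the oligosaccharyltransferase, had 9.90, 9.60 and 9.46 in Rip-B7xAI4, against 8.02, 8.32 and 8.94 in AI4, a difference of 1.23 ± 0.28. Its partner subunits Rpn1 and Dad1 differed by 0.59 ± 0.19 and 1.39 ± 0.47, and Sec61a1, the pore of the translocon, by 0.72 ± 0.26. Of 11 further degradation genes 2 were higher and 0 lower, with a median of 0.36. Selenos, a selenoprotein of the degradation complex, had 8.72, 8.70 and 8.28 in Rip-B7xAI4, against 6.496, 7.31 and 7.32 in AI4, a difference of 1.52 ± 0.28, and Os9, a lectin of the same complex, differed by 0.63 ± 0.24. Vcp, the ATPase that pulls clients out of the ER, differed by 1.30 ± 0.67 and Edem2 by -0.44 ± 0.29, both with overlap. None of these genes passed over all tested genes. Of the 55 tested in all ER lists together, 38 differences were above 0 and 17 below, and 14 genes were higher at the unadjusted limit. That count was 7 after quantile normalization (4.59% of all tested genes), 9 without AI4 replicate 2 (3.99%), 8 without Rip-B7xAI4 replicate 2 (5.84%) and 6 without Rip-B7xAI4 replicate 1 (3.49%).

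Lists of stress factors and of targets outside the folding machinery were counted in the same way. Of 6 tested genes for further ER stress factors, 0 were higher or lower at the unadjusted limit in limma, where 5.56% of all tested genes were higher and 3.17% lower, and the median was -0.11. Bbc3 (Puma) differed by -0.34 ± 0.21 (SE) with every Rip-B7xAI4 array below every AI4 array, Creb3 by 0.30 ± 0.27, Atf6b by -0.17 ± 0.20 and Ppp1r15b, which helps remove the phosphate from eIF2alpha, by 0.16 ± 0.25. Of 15 tested target genes of the ATF4 branch, 0 were higher or lower against the same shares, and the median was -0.03. Their groups did not overlap for 1 gene with Rip-B7xAI4 above (Atf3) and for 2 with Rip-B7xAI4 below (Trib3 and Chac1), where 5.99% and 11.9% of all tested genes were so. Atf3 was led by Rip-B7xAI4 replicate 1, with 9.47, 6.93 and 7.14 in Rip-B7xAI4, against 6.85, 6.35 and 6.78 in AI4, a difference of 1.19 ± 0.66. Trib3 and Phgdh differed by -0.29 ± 0.16 and -0.43 ± 0.27, and Psat1 by 0.51 ± 0.31. Trib3 was dim, from 5.85 in Rip-B7xAI4 replicate 2 to 6.37 in AI4 replicate 1. Of 29 tested further cytosolic chaperones, 2 were higher and 0 lower, where 5.56% of all tested genes were, with a median of 0.23. These were St13 (Hip), a cochaperone of Hsp70, with 0.86 ± 0.27, and Hspa4l, with 1.08 ± 0.45. Of the 29, only St13 had every Rip-B7xAI4 array above every AI4 array, where 5.99% of all tested genes did. The Hsp90 cochaperone Ptges3 (p23) differed by 1.00 ± 0.49 and Tcp1, a subunit of the TRiC chaperonin, by 0.68 ± 0.36. Of 9 tested further mitochondrial genes 0 were higher or lower, with a median of -0.12. In that list Yme1l1 differed by 0.87 ± 0.41, Clpx by 0.58 ± 0.37, Hscb by 0.24 ± 0.21 and Lonp1 by -0.18 ± 0.16.

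**Figure D5:**
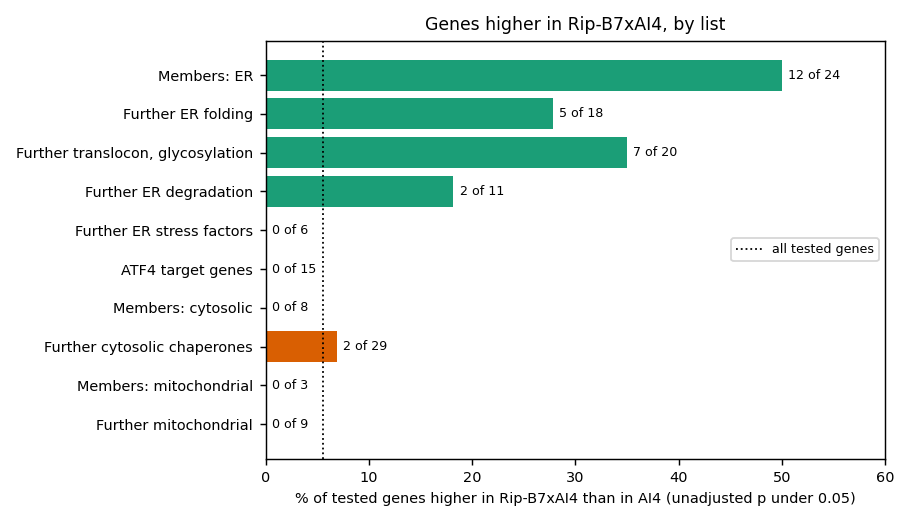
Share of tested genes in each list (rows) that were higher in Rip-B7xAI4 than in AI4 at an unadjusted limma p under 0.05 (x axis, percent), with the count at the end of each bar. The lists were chosen with earlier results of these data known. The dotted line is the 5.56% of all tested genes, and ER members (12 of 24), translocon and glycosylation genes (7 of 20), ER folding genes (5 of 18) and ER degradation genes (2 of 11) lie well to its right, and further cytosolic chaperones (2 of 29) just past it.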

How the data were processed

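Total RNA of sorted cells was measured on 6 single-colour Affymetrix arrays. The arrays were summarised in Affymetrix Expression Console, per the submitters' processing notes, with no version or algorithm stated. The deposited table holds 1 normalized value per probe set and array, read here as log2 because it spans 2.29 to 13.6, and it was not normalized again. Platform annotation named 21760 of 28325 probe sets with 1 symbol. The 30% of genes with the lowest mean (below 5.47) were not tested, which left 13950 genes. Groups came from the sample titles. Values were fitted with limma 3.58.1 in R 4.3.3 (lmFit and eBayes, group only, two-sided, Benjamini-Hochberg over all tested genes). The fit was tested on simulated data whose changes were larger than any member difference reported here. That test does not tell how well changes of the reported size are found. The number of arrays limits the precision, and an exact permutation test of 3 arrays against 3 cannot go below 0.1 (two-sided). Same-numbered arrays did not deviate together (correlations -0.08, 0.06 and -0.22), so no pairing was used. Members, lists and alternatives were chosen with earlier results of these data known. Values of every array are given for members with an unadjusted p under 0.05, without overlap, or central to the pathway, and for further lists up to 4 genes by smallest p are named. The array values of some listed genes, and the name Chac1, were chosen for printing after their values were seen. Hspa1b, Hsp90ab1 and Hsf1 were not analysed here.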

Additional observations from a re-analysis of the deposited data

How the results depend on the processing

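No member passed an adjusted p under any of the 15 settings tried (lowest 0.110, with array weights), and 496 of 534 member differences kept their direction. Many of the 534 could not turn. The block, the filters on dim genes and the trended robust fit leave a difference unchanged, as does the mean of probe sets for a member with 1 probe set. The count of 496 is therefore no measure of stability. The fit with the replicate number as a block, which the pairing check did not favour, gave 9 ER members higher at an unadjusted p under 0.05 in place of 12, and 1 cytosolic or mitochondrial member (Hspa4) in place of 0. The ER count was 6 after quantile normalization, 2 without Rip-B7xAI4 replicates 1 and 3, and 5 to 11 when 1 array was left out. The cytosolic and mitochondrial count was 1 without Rip-B7xAI4 replicates 1 and 3, with median centring, without a filter and with array weights, and 0 to 1 when 1 array was left out. The count of members lower was 0 to 1 when 1 array was left out, the 1 being Dnajc3 without Rip-B7xAI4 replicate 1. Further ER genes numbered 14, or 7 after quantile normalization, 8 with a trended robust fit, 3 without Rip-B7xAI4 replicates 1 and 3, and 6 to 17 with 1 array left out. Further cytosolic genes numbered 2, or 1 with a 50% filter, 5 with array weights, and 1 to 4 with 1 array left out. The ER median was 0.35 after quantile normalization, and the cytosolic median 0.019 to 0.36 with 1 array left out. The mitochondrial median was -0.15 after quantile normalization, 0.39 without Rip-B7xAI4 replicates 1 and 3, and -0.15 to 0.37 with 1 array left out.

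Single differences turned sign as follows. Without Rip-B7xAI4 replicates 1 and 3 they were -0.15 for Hspa1a, 0.014 for Dnaja1, 0.058 for Dnajb1, 0.43 for Hspe1, -0.17 for Dnajb9, 0.17 for Sdf2l1, 0.0070 for Creld2 and -0.092 for Ern1. With array weights they were 0.039 for Hspb1, 0.25 for Dnajb1, -0.21 for Dnajb9, 0.23 for Sdf2l1 and 0.10 for Creld2. After quantile normalization they were 0.035 for Hspb1 and -0.15 for Hspd1, and with median centring 0.041 for Hspb1 and 0.020 for Sdf2l1. Pdia4 was at -0.98 with probe set 10544538 alone. With 1 array left out the ranges were -0.0029 to 0.30 for Hspa1a, -0.12 to 0.79 for Hsp90aa1, -0.13 to 0.13 for Hspb1, -0.27 to 0.087 for Dnaja1, -0.74 to 0.43 for Dnajb1, -0.0065 to 0.70 for Hspa9, -0.18 to 0.37 for Hspd1, -0.43 to 0.022 for Hspe1, -0.39 to 0.77 for Dnajb9, -0.28 to 0.29 for Sdf2l1, -0.48 to 0.35 for Creld2 and -0.067 to 0.073 for Eif2ak3. The cause was not tested.

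Over all tested genes, 776 were higher and 442 lower at the unadjusted limit. These were 1251 and 1148 with array weights, 771 and 222 with the block, 910 and 243 with median centring, 487 and 278 without Rip-B7xAI4 replicate 1, and 512 and 102 without Rip-B7xAI4 replicates 1 and 3. The adjusted test called 1 gene, or 38 with array weights and 22 without Rip-B7xAI4 replicate 2. A pseudocount did not apply, because the values are on a log scale. Signal over background was not analysed here.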
